A study of Mus musculus with 6 samples.

Results

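Type I interferon-stimulated effector genes are the genes whose proteins carry out the antiviral work of interferon, and 45 of them were compared between lungs of R/R mice and WT mice. The genes were chosen by name, most for their known roles and Rnf144a as a chromosomal neighbour of Rsad2 and Cmpk2. The list was drawn up with earlier results of these data known, so counts over it are descriptions. All 45 were found by gene symbol among the 56262 genes of the count table. All 45 also had enough reads to be tested, out of 17120 tested genes, and the lowest count of any of them in any lung was 29. They were described in 11 families, which were the Ifit, Oas, Mx, Ifi, Trim, Slfn, Parp and Ifitm families, the neighbours Rsad2, Cmpk2 and Rnf144a, 4 RNA and nucleotide enzymes, and 8 other effectors.

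The samples were whole lungs of 8-week-old mice on the C57BL/6 background that had received no treatment, 3 per genotype. R/R mice carry the substitutions K329R and K332R in RBM47 on both alleles, made by CRISPR/Cas knock-in, and WT mice were littermates without them. RBM47 is an RNA-binding protein, and the substituted lysines are sites to which ISG15, itself an interferon-induced ubiquitin-like protein, can be attached. The comparison therefore asks what the loss of these attachment sites does to gene expression in a lung at rest. The knock-in is in the germline, so every cell type of the lung and the rest of the body carries it. RNA of the whole organ was sequenced, so fewer cells of a type and less RNA per cell cannot be told apart in any value given here.

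Each lung gave between 16501092 and 18141067 read pairs on genes. Values are given as CPM, the reads of a gene scaled to the reads of its lung on tested genes after TMM adjustment, in the order of replicates 1, 2 and 3. Epithelial and endothelial markers were abundant in all 6 lungs, with summed levels from 31000 to 34380 CPM in R/R and from 24940 to 31640 CPM in WT for 5 epithelial genes (among them Sftpc of alveolar type 2 cells) and from 3986 to 4542 CPM over all lungs for 5 endothelial genes. Rbm47 itself was at 33.4 ± 0.712 CPM in R/R and 31.2 ± 2.89 CPM in WT (SD over 3 lungs), a log2 fold change of 0.099 (SE 0.082, edgeR adjusted p = 0.660). A knock-in of this kind changes the protein and not necessarily the amount of mRNA, so this level does not check the genotype labels.

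Interferon-α and interferon-β, the type I interferons, bind the receptor made of IFNAR1 and IFNAR2, which activates the kinases JAK1 and TYK2. STAT proteins are then phosphorylated and, with IRF9, form a complex that enters the nucleus and binds a DNA element called the interferon-stimulated response element. Many of the genes that carry this element keep a low level of transcription in uninfected tissue, and in the lung their products form an early barrier to respiratory viruses.

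The core of that element, a pair of GAAA repeats separated by 2 bases, was looked for in the promoters. RefSeq windows of 300 bases, 250 before and 50 after a gene's start in the assembly GRCm38.p6, were searched on both strands for GAAANNGAAA, in which N is any base and overlapping matches were counted separately. The motif was present in 3.44% of all 32851 windows, and 3.99% of the 27025 genes with a window held it in at least 1 of their windows. Among the 37 effector genes with a window, 17 held it, which is 45.9%. These were Ifit1, Ifit3, Ifit3b, Oas1a, Oas1g, Oas3, Rsad2, Ifitm2, Ifitm3, Bst2, Trim21, Trim30a, Trim34a, Slfn5, Slfn8, Eif2ak2 and Ddx60. Oas2, Mx1, Mx2, Ifi27, Parp9, Parp10, Parp14 and Rtp4 were not searched. A match says only that these letters are there. Only this spacing was searched, so a window without a match can hold GAAA repeats at another spacing, as in Helz2, Phf11d and Xaf1.

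Because Rsad2, Cmpk2 and Oas3 were among the genes called lower in R/R lungs (described later), the 250 bases before their starts are shown on the gene's own strand, with matches to the motif in capitals, first for Oas3 (chr5:120777660-120777909, minus strand), then for Rsad2 (chr12:26456453-26456702, minus strand) and for Cmpk2 (chr12:26468965-26469214, plus strand), the last without a match:
Oas3: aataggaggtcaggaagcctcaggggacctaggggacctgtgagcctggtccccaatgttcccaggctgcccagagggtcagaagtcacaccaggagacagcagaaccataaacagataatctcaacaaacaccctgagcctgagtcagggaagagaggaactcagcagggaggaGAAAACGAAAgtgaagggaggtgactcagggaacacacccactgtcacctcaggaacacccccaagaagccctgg
Rsad2: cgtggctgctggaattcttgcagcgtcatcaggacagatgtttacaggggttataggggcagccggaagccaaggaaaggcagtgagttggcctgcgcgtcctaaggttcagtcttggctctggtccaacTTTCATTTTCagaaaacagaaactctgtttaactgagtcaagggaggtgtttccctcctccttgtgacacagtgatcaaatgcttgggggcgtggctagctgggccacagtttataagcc
Cmpk2: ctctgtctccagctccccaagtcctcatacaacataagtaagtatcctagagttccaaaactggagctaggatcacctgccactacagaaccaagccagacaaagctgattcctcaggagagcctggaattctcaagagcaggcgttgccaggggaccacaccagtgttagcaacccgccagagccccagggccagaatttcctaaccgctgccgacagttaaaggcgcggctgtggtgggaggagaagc

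In Oas3 the match read forward and began 75 bases before the start, and in Rsad2 it lay on the other strand, as TTTC repeats, and began 120 bases before the start.

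Stretches of 30 bases around a match are shown for neighbouring copies within a family, since the same letters recur there, and for the most abundant effectors, which hold the motif as well. They lie at chr19:34640785-34640814 (plus strand) for Ifit1, chr19:34583363-34583392 (plus strand) for Ifit3, chr19:34607759-34607788 (plus strand) for Ifit3b, chr5:120907523-120907552 (minus strand) for Oas1a, chr5:120887609-120887638 (minus strand) for Oas1g, chr7:141010714-141010743 (minus strand) for Ifitm3 and chr8:71537580-71537609 (minus strand) for Bst2:
Ifit1: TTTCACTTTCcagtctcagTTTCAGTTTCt
Ifit3: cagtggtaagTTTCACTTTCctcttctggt
Ifit3b: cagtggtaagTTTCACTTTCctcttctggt
Oas1a: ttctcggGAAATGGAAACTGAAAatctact
Oas1g: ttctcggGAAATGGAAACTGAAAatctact
Ifitm3: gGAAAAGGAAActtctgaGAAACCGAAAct
Bst2: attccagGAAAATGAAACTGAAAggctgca

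The stretches of Ifit3 and Ifit3b are identical, as are those of Oas1a and Oas1g. In Ifit1 2 matches stand 104 and 85 bases before the start, and in Oas1a, Oas1g and Bst2 2 overlapping matches form 3 GAAA repeats in a row. The matches of Ifitm3 lie just after the start, at 2 and 19 bases.

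Most of the effector genes were lower in R/R lungs than in WT lungs, by small amounts. A negative log2 fold change (R/R over WT) was found for 41 of the 45 genes, against 48.8% of all tested genes, and the median was -0.17, against 0.0045 for all tested genes. After adjustment over all tested genes, 5 of the 45 (11.1%) were called lower in R/R lungs, a call being a Benjamini-Hochberg adjusted p below 0.05 in edgeR's quasi-likelihood test, while 1.10% of all tested genes were called lower. None of the 45 was called higher by edgeR, DESeq2 or limma-voom, while 0.648% of all tested genes were called higher. In the edgeR test with TMM scaling, the default filter and all lungs, none was higher at an unadjusted p below 0.05. Trim30a was in some alternative fits (described later). At an unadjusted p below 0.05, 21 of the 45 (46.7%) were lower, against 7.68% of all tested genes. For 19 of the 45 (42.2%) all R/R lungs were below all WT lungs, against 9.50% of all tested genes, and for the other 26 the genotypes overlapped.

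**Figure D1:**
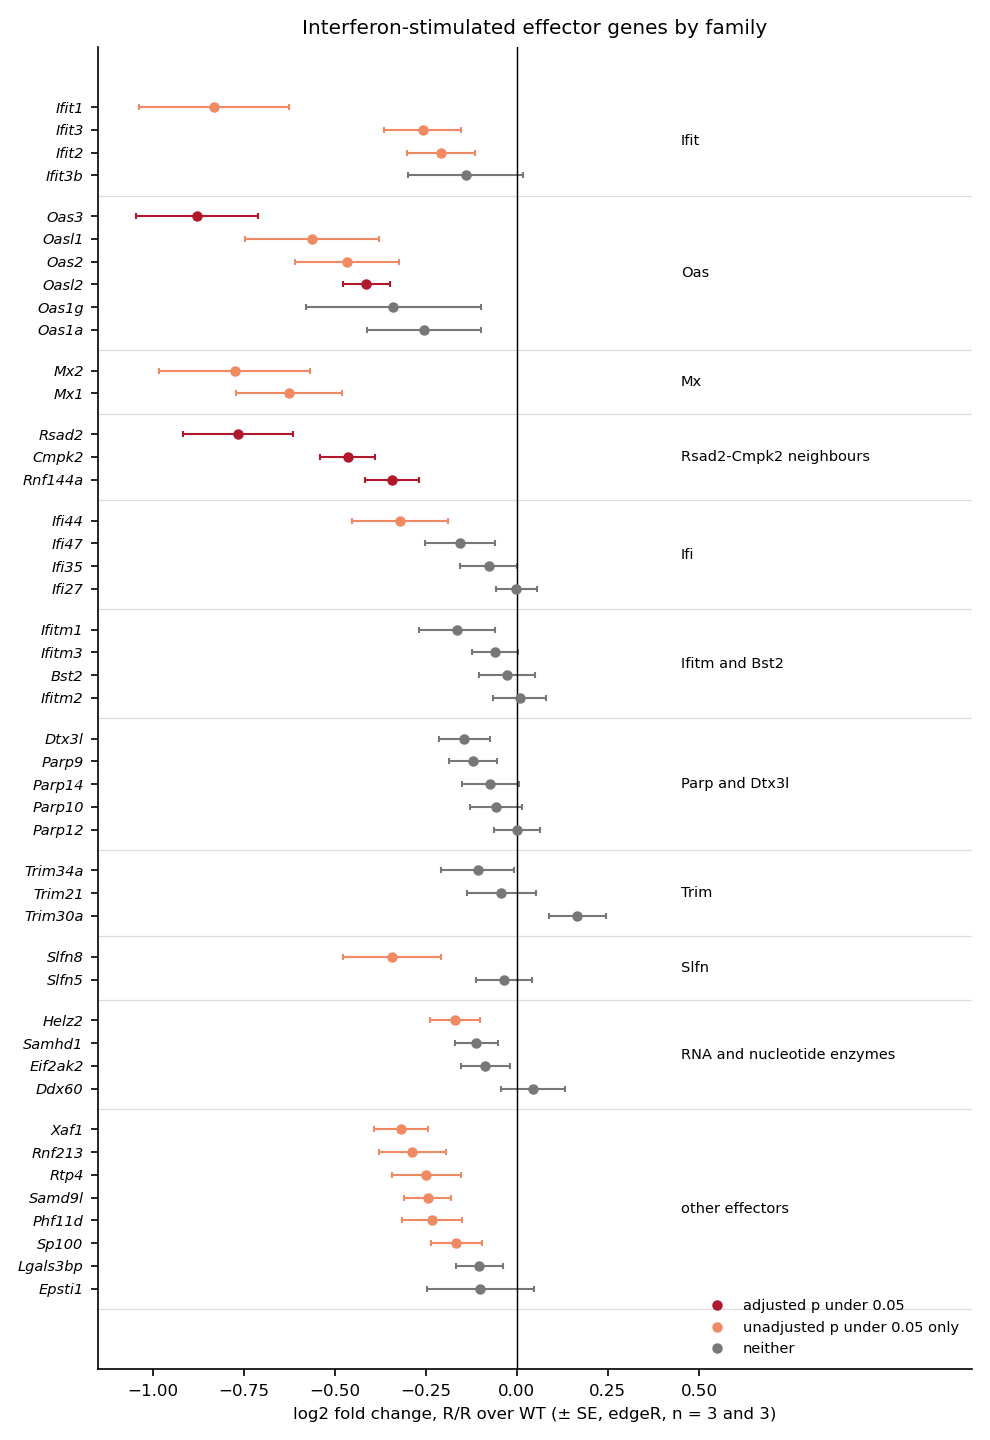
Log2 fold change of R/R over WT lungs for each of the 45 effector genes, in families. Points are edgeR estimates, bars are ± 1 SE (n = 3 lungs per genotype), and colours mark adjusted p below 0.05 (5 genes), unadjusted p below 0.05 only (16 further genes) and neither (24 genes). Oas3 (-0.88), Ifit1 (-0.83), Mx2 (-0.78) and Rsad2 (-0.77) lie farthest to the left, and the points of the Ifitm, Parp and Trim families lie around 0.

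The genes called were Oasl2, Cmpk2, Oas3, Rsad2 and Rnf144a, and how many genes were called depended on single lungs. Without R/R replicate 2 and without WT replicate 1 the number called by edgeR was 0 in each case, with 16 and 15 genes lower at an unadjusted p below 0.05. It was 2 without R/R replicate 1, 3 without R/R replicate 3, 2 without WT replicate 2 and 11 without WT replicate 3. Between 39 and 42 of the 45 log2 fold changes were negative in those 6 fits. Calls in either direction over all tested genes numbered 300 with every lung kept. They fell to 76 and 65 where 0 effector genes were called, in the order given above. Where 2, 3, 2 and 11 effector genes were called, they numbered 180, 117, 110 and 621. The number of calls therefore moved over all tested genes, not only among the effector genes.

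Across the whole list, the R/R lungs lay on one side of the WT lungs. The log2 level of each gene was expressed as its deviation from the mean of the 6 lungs, and the median over the 45 genes was taken in each lung. It was -0.10, -0.11 and -0.054 in the R/R lungs and 0.15, 0.11 and 0.032 in the WT lungs, while the median over all tested genes stayed between -0.0002 and 0.0049. All 3 R/R lungs were below 0 and all 3 WT lungs above it, with WT replicate 3 nearest to the R/R lungs. Below their mean were 38, 36 and 35 of the 45 genes in the R/R lungs and 7, 9 and 20 in the WT lungs. These values come from the same levels as the fold changes, so they are no separate support. Summed over the 45 genes, levels were between 3207 and 3293 CPM in R/R lungs and between 3462 and 3759 CPM in WT lungs. WT replicate 3 was the lowest WT lung for 30 of the 45 genes, and the highest for 8.

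**Figure D2:**
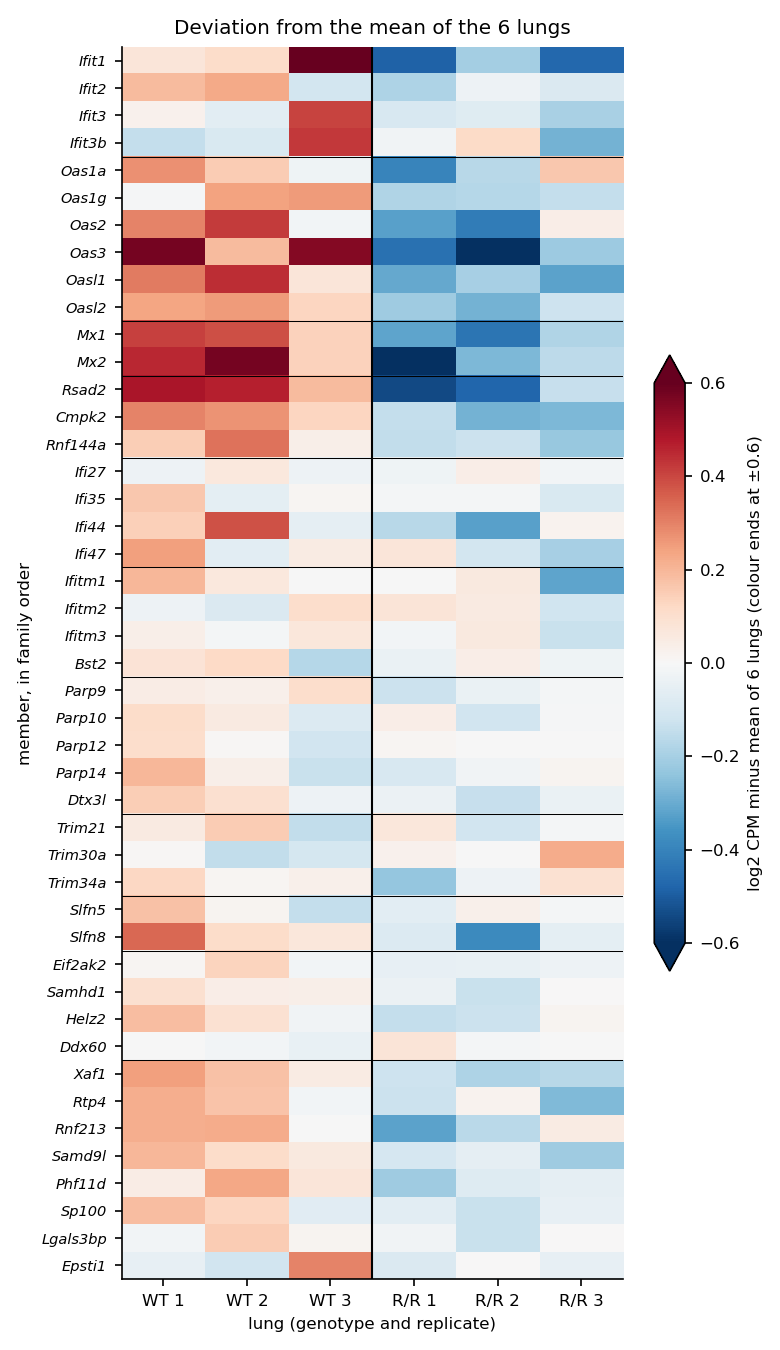
Deviation of each of the 45 effector genes (rows, in family order) in each lung (columns) from its mean over the 6 lungs, on the log2 CPM scale. Red is above and blue below the mean, colours end at ± 0.6, and lines separate families. The WT columns are mostly red and the R/R columns mostly blue. WT replicate 3 is the palest WT column in many rows but the darkest in some, among them Ifit1, Ifit3, Ifit3b and Epsti1.

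Oas3 and Oasl2, with the largest fold change and the lowest adjusted p of the 45 genes, belong to the Oas family, whose enzymes make 2′-5′-linked oligoadenylates in the presence of double-stranded RNA and thereby switch on RNase L, which cuts viral and cellular RNA. All 6 members had a negative log2 fold change (median -0.44), 2 were called lower, 4 were at an unadjusted p below 0.05, and in 4 the genotypes did not overlap. Oasl2, a synthetase with ubiquitin-like domains, is the most abundant of the family per length, at 12.4 CPM per kilobase of exon over the 6 lungs. It was at 67.7, 64.5 and 71.98 CPM in R/R against 92.3, 93.8 and 85.8 CPM in WT. All R/R lungs were below all WT lungs, and Oasl2 fell to 75.1% of its WT level (log2 fold change -0.41, SE 0.064, edgeR adjusted p = 0.0115).

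Oas3, the form that prefers long double-stranded RNA, was at 5.16, 4.48 and 6.07 CPM in R/R against 10.5, 8.06 and 10.4 CPM in WT. Its levels did not overlap between the genotypes, and it fell to 54.4% of its WT level (log2 fold change -0.88, SE 0.17, edgeR adjusted p = 0.0308), the largest log2 change of the 45 genes. Oas2 was at 12.7, 11.9 and 16.4 CPM in R/R against 19.6, 21.3 and 15.8 CPM in WT. Here R/R replicate 3 was above WT replicate 3, so the genotypes overlapped (log2 fold change -0.47, edgeR adjusted p = 0.148). Oasl1, which lacks the synthetase activity and restrains the translation of IRF7, was at 3.27, 3.53 and 3.24 CPM in R/R against 5.04, 5.52 and 4.27 CPM in WT. All R/R lungs were below all WT lungs in Oasl1, but it did not pass the test (log2 fold change -0.56, edgeR adjusted p = 0.174). Oas1a and Oas1g, 2 of the several mouse copies of Oas1, had log2 fold changes of -0.26 and -0.34 with adjusted p values of 0.518 and 0.590 in edgeR. Reads of these copies are hard to place: 32.4% of the 150-base stretches of Oas1a transcripts and 24.1% of those of Oas1g were also found in the other copy, and read pairs that mapped to several places were not counted.

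Rsad2, Cmpk2 and Rnf144a lie side by side on chromosome 12 and were all called lower. Rsad2 (chr12:26442746-26456452, minus strand) encodes viperin, which converts CTP into a chain terminator of viral RNA polymerases, and Cmpk2 (chr12:26469204-26479837, plus strand) encodes a mitochondrial kinase of pyrimidine nucleotides that can supply that CTP. Rnf144a (chr12:26300964-26415254, minus strand) encodes a RING-in-between-RING ubiquitin ligase. Rsad2 was at 6.05, 6.34 and 8.01 CPM in R/R against 12.4, 12.2 and 10.1 CPM in WT. The genotypes did not overlap, with R/R replicate 3 and WT replicate 3 closest to each other, and Rsad2 fell to 58.8% of its WT level (log2 fold change -0.77, SE 0.15, edgeR adjusted p = 0.0321).

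Cmpk2 was at 35.02, 31.8 and 32.2 CPM in R/R against 47.6, 46.7 and 42.4 CPM in WT. Its lungs were tightly grouped, and it fell to 72.5% of its WT level (log2 fold change -0.46, SE 0.076, edgeR adjusted p = 0.0150). Rnf144a was far more abundant than its neighbours per length, at 45.4 CPM per kilobase against 9.43 for Cmpk2 and 2.12 for Rsad2. Its levels were 298, 302 and 282 CPM in R/R against 366, 414 and 339 CPM in WT. WT replicate 2 was the highest, no R/R lung reached a WT lung, and Rnf144a fell to 78.8% of its WT level (log2 fold change -0.34, SE 0.075, edgeR adjusted p = 0.0447). Of the 14 annotated genes within 500 kb of Rsad2 on either side, these 3 were the only ones with enough reads to be tested.

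The calls in these neighbours and in the Oas family were not equally stable. Oasl2 was called in 4 of the 6 fits that left out 1 lung, and lost without R/R replicate 2 or WT replicate 1, with adjusted p values up to 0.0620 in edgeR. Oas3 was lost without WT replicate 1 or either of R/R replicates 1 and 2 (adjusted p up to 0.120). Rsad2 was called only without R/R replicate 3 or WT replicate 3 (up to 0.131 in the others), Cmpk2 only without R/R replicate 1 or WT replicate 3 (up to 0.0700), and Rnf144a only without WT replicate 3 (up to 0.161). All 5 were called by DESeq2 and by limma-voom.

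**Figure D3:**
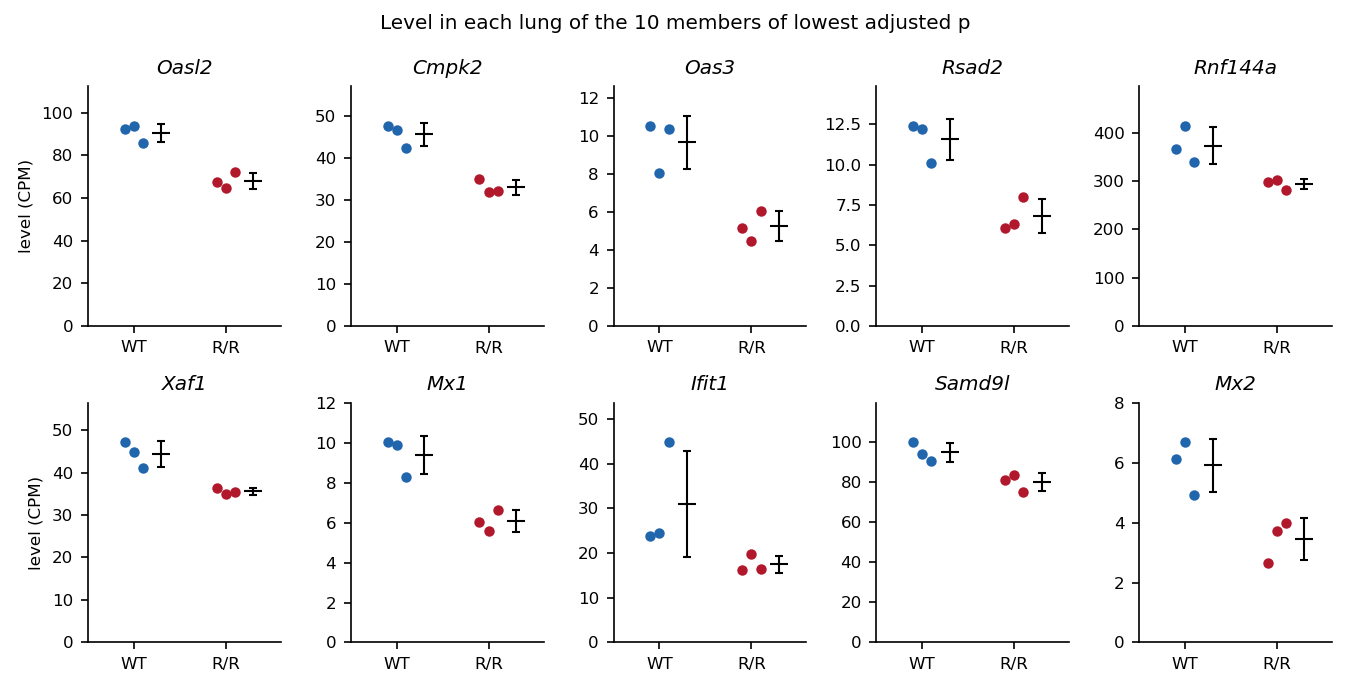
Level in CPM of the 10 effector genes with the lowest adjusted p, each point 1 lung (blue WT, red R/R), with the mean and ± SD beside the points (n = 3). Axes start at 0. In each of the 10 genes every R/R lung is below every WT lung, but the genes were picked by p from these same lungs. The spread of Ifit1 in WT comes from WT replicate 3 at 44.7 CPM.

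The Mx genes encode dynamin-like GTPases that block virus entry and replication, although C57BL/6 mice carry a disabled Mx1. Both members were lower at an unadjusted p below 0.05 and neither was called by edgeR or limma-voom, while DESeq2 called Mx1. Mx1 was at 6.05, 5.56 and 6.66 CPM in R/R against 10.02, 9.88 and 8.31 CPM in WT. Each R/R lung was below each WT lung (log2 fold change -0.63, SE 0.15, edgeR adjusted p = 0.0573). Mx2 was at 2.66, 3.71 and 4.00 CPM in R/R against 6.13, 6.68 and 4.92 CPM in WT, also without overlap (log2 fold change -0.78, SE 0.21, edgeR adjusted p = 0.0943). Without WT replicate 3 both were called by edgeR, with adjusted p values of 0.0252 and 0.0411.

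The Ifit family encodes proteins with tetratricopeptide repeats that bind foreign RNA, IFIT1 at cap structures that lack a methyl group. All 4 members had negative log2 fold changes (median -0.23), 3 were at an unadjusted p below 0.05, and none was called by edgeR, DESeq2 or limma-voom. Ifit1 was at 16.2, 19.7 and 16.4 CPM in R/R against 23.9, 24.5 and 44.7 CPM in WT. WT replicate 3 stood far above the other 5 lungs, and although no lung overlapped, the SE was the largest of the 21 genes at an unadjusted p below 0.05 (log2 fold change -0.83, SE 0.21, edgeR adjusted p = 0.0739). Without WT replicate 3 the log2 fold change of Ifit1 was -0.48, and edgeR then called it (adjusted p = 0.0358).

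Ifit3, the most abundant Ifit gene per length at 30.4 CPM per kilobase, was at 49.1, 49.9 and 45.9 CPM in R/R against 53.5, 50.4 and 69.6 CPM in WT. As in Ifit1, WT replicate 3 was the highest (log2 fold change -0.26, edgeR adjusted p = 0.292). Ifit2 was at 33.9, 37.8 and 36.4 CPM in R/R against 43.97, 45.1 and 35.7 CPM in WT. There WT replicate 3 lay within the R/R range and the genotypes overlapped (log2 fold change -0.21, edgeR adjusted p = 0.341). Ifit3b, a near copy of Ifit3, had a log2 fold change of -0.14 (edgeR adjusted p = 0.760), and without WT replicate 3 it was 0.061. Of the 150-base stretches of their transcripts, 18.5% in Ifit3 and 16.0% in Ifit3b were found in the other gene, so counts of these copies are uncertain.

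The 8 other effectors shared the direction: all 8 log2 fold changes were negative (median -0.24), 6 were at an unadjusted p below 0.05, and none was called by edgeR or limma-voom, while DESeq2 called Xaf1 and Rnf213. Xaf1, which counters an inhibitor of caspases, was at 36.4, 34.9 and 35.3 CPM in R/R against 47.1, 44.8 and 41.04 CPM in WT. All R/R lungs were below all WT lungs (log2 fold change -0.32, SE 0.073, edgeR adjusted p = 0.0558), the closest of the 45 genes to the threshold on its other side. Samd9l, an antiviral protein that represses translation, was at 81.2, 83.9 and 75.2 CPM in R/R against 100, 94.2 and 90.7 CPM in WT. Its genotypes did not overlap either (log2 fold change -0.25, SE 0.064, edgeR adjusted p = 0.0892). Rnf213, a giant ubiquitin ligase with an ATPase core, was at 270.3, 301 and 348 CPM in R/R against 392, 393 and 337 CPM in WT. R/R replicate 3 exceeded WT replicate 3 there, so the genotypes overlapped (log2 fold change -0.29, edgeR adjusted p = 0.166).

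Phf11d, a gene with a PHD finger, was at 28.1, 30.9 and 31.4 CPM in R/R against 33.6, 38.2 and 34.3 CPM in WT, with no overlap (log2 fold change -0.23, edgeR adjusted p = 0.206). Rtp4, a zinc finger protein that restricts flaviviruses, was at 26.5, 29.3 and 24.03 CPM in R/R against 33.6, 32.6 and 28.6 CPM in WT. Here R/R replicate 2 was above WT replicate 3 (log2 fold change -0.25, edgeR adjusted p = 0.252). Sp100, a component of nuclear bodies, was at 109, 104 and 109.7 CPM in R/R against 129, 124 and 108 CPM in WT. WT replicate 3 lay among the R/R lungs (log2 fold change -0.17, edgeR adjusted p = 0.307). Lgals3bp, a secreted glycoprotein and the most abundant of these 8 per length, was at 145, 134 and 147 CPM in R/R against 146, 164 and 149 CPM in WT, with overlapping genotypes and a log2 fold change of -0.10. Epsti1 was at -0.10 on the same scale, with an adjusted p of 0.826 in edgeR.

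In the Ifi family, 1 of 4 members was at an unadjusted p below 0.05, none was called by edgeR, DESeq2 or limma-voom, and the median log2 fold change was -0.12. That member was Ifi44, a cytoplasmic protein, at 13.8, 12.4 and 15.7 CPM in R/R against 17.1, 20.3 and 14.9 CPM in WT. WT replicate 3 was below R/R replicate 3, so the genotypes overlapped (log2 fold change -0.32, edgeR adjusted p = 0.291). Ifi27, a small hydrophobic protein of mitochondrial membranes and the most abundant of the 4 per length, was at 86.4, 90.3 and 87.1 CPM in R/R against 86.1, 91.7 and 86.1 CPM in WT. The lungs were interleaved, with a log2 fold change of -0.0015 (SE 0.057). Ifi35 and the GTPase gene Ifi47 had log2 fold changes of -0.078 and -0.16, and 16.8% and 8.77% of their exon bases are shared with another gene.

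Small differences were found in the most abundant effectors. Ifitm1, Ifitm2 and Ifitm3 keep viral and cell membranes from fusing, and Bst2, or tetherin, holds budding virions at the cell surface. Ifitm3 was the most abundant of all 45 genes per length, at 390.2 CPM per kilobase, followed by Ifitm2 at 159.5 and Bst2 at 101.3. Its levels were 262, 275 and 241 CPM in R/R against 271, 262 and 277 CPM in WT. The genotypes overlapped in all 4 genes, with log2 fold changes of -0.16 for Ifitm1, 0.0072 for Ifitm2, -0.059 for Ifitm3 and -0.027 for Bst2 and adjusted p values from 0.533 to 0.981 in edgeR. None of the 4 reached an unadjusted p below 0.05 in edgeR, and none was called by DESeq2 or limma-voom. Ifitm2 shares 40.9% of its exon bases with another annotated gene on the same strand.

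PARP9 and DTX3L form a complex that modifies histones and ubiquitin, and PARP10, PARP12 and PARP14 add single ADP-ribose units to proteins. Log2 fold changes of these 5 genes ran from -0.14 for Dtx3l to 0.00060 for Parp12 (median -0.074). Parp12, the most abundant of them per length, was at 104, 102 and 103 CPM in R/R against 110.4, 103 and 95.02 CPM in WT. In Parp9 and Dtx3l all R/R lungs were below all WT lungs, with log2 fold changes of -0.12 and -0.14. These neighbours share exon bases on opposite strands, 9.4% of those of Parp9 and 8% of those of Dtx3l, so their counts are uncertain. The lowest adjusted p of the 5 genes was 0.378 in edgeR, and neither DESeq2 nor limma-voom called any. Parp10 and Parp14 were at -0.057 and -0.074 with overlapping lungs.

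Among the Trim genes, which encode ubiquitin ligases, Trim30a was the only 1 of the 45 genes with a positive log2 fold change above 0.1. Its levels were 51.7, 50.8 and 59.4 CPM in R/R against 51.1, 45.97 and 47.3 CPM in WT. R/R replicate 3 was the highest, the genotypes overlapped, and the difference did not pass the test (log2 fold change 0.17, SE 0.077, edgeR adjusted p = 0.362). In 5 alternative edgeR fits it was higher at an unadjusted p below 0.05, namely with upper-quartile factors, with no filter beyond 1 count, and on omission of WT replicate 1 or either of R/R replicates 1 and 2, with adjusted p values from 0.348 to 0.427. Trim21, a cytosolic receptor for antibodies, and Trim34a had log2 fold changes of -0.043 and -0.11. The median of the 3 genes was -0.043, and without R/R replicate 2 and WT replicate 2 it was 0.0039 and 0.0250.

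Slfn5 and Slfn8 belong to the schlafen genes, some of which cleave transfer RNA. Slfn8 was at 10.1, 8.19 and 10.2 CPM in R/R against 13.5, 11.5 and 11.2 CPM in WT. Its genotypes did not overlap (log2 fold change -0.34, edgeR adjusted p = 0.265), whereas the more abundant Slfn5 was at 227, 242 and 235 CPM in R/R against 268, 239.5 and 214 CPM in WT with overlap and a log2 fold change of -0.035. Helz2, a helicase that acts as a nuclear coactivator, was at 207, 209.5 and 231 CPM in R/R against 260.4, 244 and 226 CPM in WT. R/R replicate 3 was above WT replicate 3 (log2 fold change -0.17, edgeR adjusted p = 0.283).

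Samhd1, which breaks down deoxynucleotides needed by retroviruses and is the most abundant of the 4 enzymes per length, was at 288, 269 and 295 CPM in R/R against 315, 303 and 302 CPM in WT. The R/R lungs were all below the WT lungs, by a log2 fold change of -0.11 that did not pass the test (SE 0.059, edgeR adjusted p = 0.435). Eif2ak2, the kinase PKR that halts translation on double-stranded RNA, was at -0.087 on the log2 scale, also without overlap, and the helicase gene Ddx60 at 0.045. None of the Slfn genes or of these enzymes was called by edgeR, DESeq2 or limma-voom, and 1 of 2 and 1 of 4 were at an unadjusted p below 0.05 in edgeR.

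Level and size of difference can be set side by side over the whole list. In the 15 genes of lowest level per length, from 0.842 to 7.53 CPM per kilobase, the median log2 fold change was -0.34 and 9 were at an unadjusted p below 0.05. It was -0.17 in the 15 genes between 7.75 and 16.1 CPM per kilobase, with 8 at that p, and -0.078 in the 15 genes from 16.2 to 390 CPM per kilobase, with 4. The called genes were spread over these groups, 2, 2 and 1 in turn, and Rnf144a was the most abundant of them. The median SE of the log2 fold change was 0.15, 0.073 and 0.075 in the same order, so the genes of lowest level also had the larger errors.

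**Figure D4:**
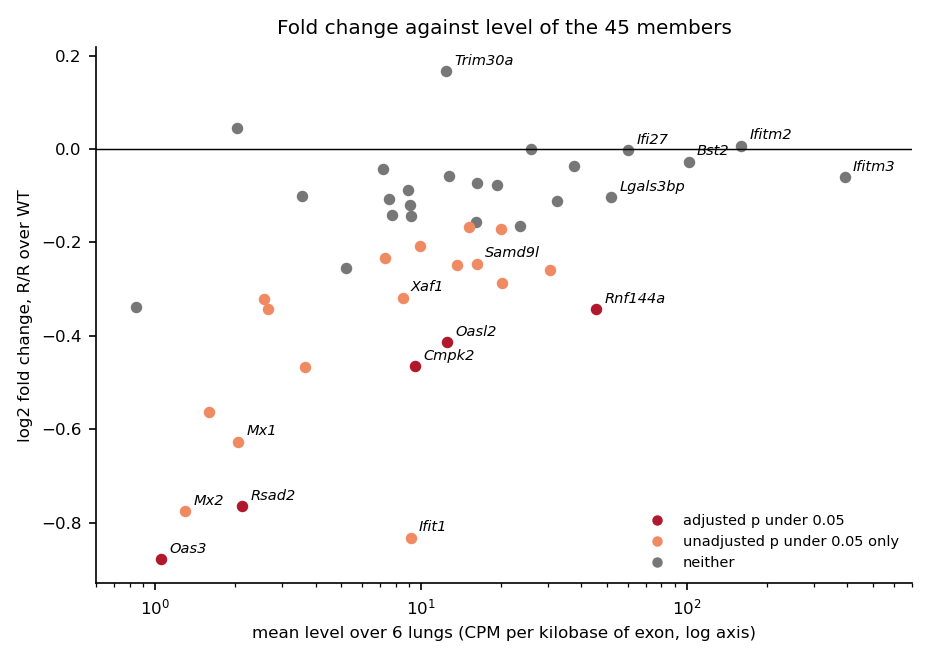
Log2 fold change of R/R over WT lungs against mean level over the 6 lungs (CPM per kilobase of exon, log axis) for the 45 effector genes, 1 point per gene. Ifitm3, Ifitm2, Bst2 and Ifi27 on the right lie near 0, and the 3 lowest points, Oas3 (-0.88), Ifit1 (-0.83) and Mx2 (-0.78), lie at or below 9.12 CPM per kilobase.

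The promoter motif was set beside the fold changes as a description, with no test. The median log2 fold change was -0.11 over the 17 genes with the motif and -0.19 over the 20 genes with a window and no match at this spacing. At an unadjusted p below 0.05 were 5 of the 17 and 12 of the 20, and Oas3 and Rsad2 held the motif while Oasl2, Cmpk2 and Rnf144a did not.

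For 27 of the 45 genes the SD of log2 CPM over 3 lungs was larger in WT than in R/R, against 48.1% of all tested genes, and for the other 18 it was not. The median SD was 0.127 in WT and 0.0802 in R/R, beside WT replicate 3 as the lowest WT lung for 30 of the 45 genes, and the difference in spread was not tested.

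Upstream of the effectors, the genes for interferons themselves were near or at 0 reads. In the 9 interferon genes looked at, Ifna1, Ifna2, Ifna4, Ifnb1, Ifne, Ifnl2 and Ifnl3 had 0 reads in all 6 lungs, and 3 reads correspond to at most 0.182 CPM in any of these lungs. Ifng, the type II interferon gene, had 3, 0 and 3 reads in the R/R lungs and 5, 6 and 2 in the WT lungs, and Ifnk had 0, 1 and 3 against 6, 1 and 0. Such counts cannot show a difference at this depth.

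Values of the receptor genes overlapped between the genotypes. Ifnar1 was at 126, 111 and 119 CPM in R/R against 115, 123 and 110.4 CPM in WT, with a log2 fold change of 0.033 (SE 0.066). Ifnar2 was at 71.04, 59.8 and 62.5 CPM in R/R against 68.3, 64.4 and 61.7 CPM in WT, with a log2 fold change of -0.0063 (SE 0.075). Over the 6 receptor genes, with Ifngr1, Ifngr2, Ifnlr1 and Il10rb, the median was -0.0039 and none reached an unadjusted p below 0.05 in edgeR or a call in edgeR, DESeq2 or limma-voom.

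Of 11 genes for kinases, STAT proteins and interferon regulatory factors, 8 had a negative log2 fold change (median -0.091), 3 were lower at an unadjusted p below 0.05, and 1 was called. That was Irf7, the regulatory factor that amplifies interferon production and is itself interferon-induced, at 23.1, 27.4 and 28.3 CPM in R/R against 35.8, 39.4 and 37.9 CPM in WT. No lung overlapped, and Irf7 fell by 0.52 on the log2 scale (SE 0.089, edgeR adjusted p = 0.0172). The call was lost without R/R replicate 2 or WT replicate 2, with adjusted p values up to 0.0619.

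Stat2 and Irf9, which encode parts of the transcription complex, did not pass the test. Stat2 was at 76.7, 80.7 and 94.5 CPM in R/R against 97.97, 98.3 and 84.2 CPM in WT, with overlap and a log2 fold change of -0.16 (edgeR adjusted p = 0.465). Irf9 was at 65.7, 69.8 and 69.2 CPM in R/R against 87.6, 85.99 and 72.01 CPM in WT, without overlap (log2 fold change -0.26, edgeR adjusted p = 0.129). Irf5, at 24.1, 24.8 and 25.6 CPM in R/R against 29.9, 26.9 and 27.3 CPM in WT, also had no overlap (log2 fold change -0.18, edgeR adjusted p = 0.340).

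Among 10 sensors of foreign nucleic acid, Ddx58, which encodes RIG-I, was the only 1 at an unadjusted p below 0.05. It was at 78.8, 79.7 and 85.6 CPM in R/R against 91.1, 89.7 and 86.8 CPM in WT. The gap between the genotypes was narrow, and Ddx58 did not pass the test (log2 fold change -0.13, edgeR adjusted p = 0.334). None of the 10 was called by edgeR, DESeq2 or limma-voom, and their median log2 fold change was -0.057.

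All 7 genes of the ISG15 attachment machinery had negative log2 fold changes (median -0.10), 1 was at an unadjusted p below 0.05, and none was called by edgeR, DESeq2 or limma-voom. Isg15 was at 7.99, 10.9 and 10.7 CPM in R/R against 12.1, 17.3 and 11.1 CPM in WT. Its lungs did not overlap, but WT replicate 2 stood well above the other 2 WT lungs (log2 fold change -0.46, SE 0.18, edgeR adjusted p = 0.266). Usp18, which removes ISG15 from proteins and blocks the receptor, was at 17.98, 20.9 and 20.4 CPM in R/R against 20.9, 22.02 and 18.1 CPM in WT, with overlap and a log2 fold change of -0.043.

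Of 5 negative regulators, Ptpn6, the phosphatase SHP-1 of blood cells, was called lower. It was at 56.8, 52.4 and 56.3 CPM in R/R against 68.6, 64.96 and 68.2 CPM in WT. Each R/R lung was below each WT lung there (log2 fold change -0.29, SE 0.062, edgeR adjusted p = 0.0444), but no fit that left out 1 lung kept the call (adjusted p from 0.0609 to 0.164), and limma-voom did not call it. In all, 39 of the 48 pathway genes were tested. Of these, 2 (Irf7 and Ptpn6) were called lower, against 1.10% of all tested genes. Lower at an unadjusted p below 0.05 were 6 of the 39, against 7.68% of all tested genes. None of the 39 was higher at either threshold in edgeR or called higher by DESeq2 or limma-voom.

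Markers of some blood cell types also differed between the genotypes, and whether they followed the effector genes from lung to lung was not tested. All 5 B cell markers were lower in R/R lungs, 4 of them called by edgeR, against 1.10% of all tested genes called lower. Their summed level was between 72.0 and 98.6 CPM in R/R lungs and between 137 and 171.6 CPM in WT lungs, with none at 0. Ms4a1, which encodes the B cell surface protein CD20, had the largest change of them (log2 fold change -0.99, edgeR adjusted p = 0.00675). All 5 T cell markers had negative log2 fold changes, with adjusted p values from 0.0721 to 0.680 in edgeR, and their sum was 18.7 to 24.5 CPM in R/R lungs and 27.3 to 36.4 CPM in WT lungs.

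Neutrophil markers were lower in median (-1.01 on the log2 scale over 4 tested of 5), with sums of 60.4 to 87.7 CPM in R/R lungs and 61.9 to 172 CPM in WT lungs, and adjusted p values from 0.108 to 0.199 in edgeR. The lowest WT lung lay within the R/R range. Ly6g, which defines these cells, was at or near 0 in all lungs. Red cell genes had a median log2 fold change of -0.67, with 1 of 5 called lower (Hba-a1), against 1.10% of all tested genes. Their summed levels were 1175 to 2218 CPM in R/R lungs against 2424 to 3217 CPM in WT lungs. Of 5 alveolar macrophage genes, 4 went the other way, and Car4 had a log2 fold change of -0.10. Called higher were 2 of the 5 (Chil3 and Mrc1), against 0.648% of all tested genes. Sums were 853.9 to 955 CPM in R/R lungs against 593.3 to 750.1 CPM in WT lungs. Most of each sum was Chil3, at 582.5 to 664.7 CPM in R/R lungs and 340 to 488.6 CPM in WT lungs. Of the epithelial genes, 4 of 5 had positive log2 fold changes (median 0.21), 2 were higher at an unadjusted p below 0.05, and adjusted p values were from 0.271 to 0.940 in edgeR. Sftpc was above the WT lungs in all R/R lungs (log2 fold change 0.25). Of the endothelial genes, 4 of 5 had negative log2 fold changes (median -0.11) and 1 was lower at an unadjusted p below 0.05. Their adjusted p values were from 0.350 to 0.883 in edgeR. The part of these shifts in the lower effector genes was not tested.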

How the data were processed

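RNA-seq was run on lungs of 3 mice per genotype (R/R and WT) with paired-end reads of 150 bp, and the labels gave genotype and replicate number. Per the supplement, the animals were littermates and each group had 3 biological replicates, but which animals shared a litter is not given in the sources used here. The submitters' processing notes name HISAT2 2.1.0, the assembly GRCm38 (mm10) and DESeq2, whereas the methods name edgeR. The table the authors deposited holds raw counts, the read pairs that featureCounts 2.0.1 assigned to each gene, per the file header, without strand and without pairs that map to several places. Genes that overlap, or that have near copies, therefore have uncertain counts. For 1 of the 6 deposited columns the records of this work say estimated count, because an automatic check misread a comment line. Its values are whole numbers, like the others, and none was rounded.

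GENCODE M21, on that assembly, gave symbols and coordinates and named 55141 of 56262 identifiers. The 1121 others were kept in the fit. Low genes were removed with filterByExpr at its defaults (count 10, total count 15). TMM-scaled counts were fitted on the whole table with edgeR 4.0.16 (R 4.3.3, glmQLFit and glmQLFTest), with Benjamini-Hochberg adjustment over all genes tested. For the SE, the absolute log2 fold change was divided by the root of F. Total counts were from 16815020 to 18071818 in R/R lungs and from 16501092 to 18141067 in WT lungs, and the biological coefficient of variation was 8.62%. Limits from counts cover counting error only. An exact permutation test (two-sided, log2 CPM with a prior count of 0.5) was run for single genes. Its smallest possible p with 3 lungs per genotype is 0.1, reached in all 10 genes with the lowest adjusted p. Those genes were picked by p from the same lungs, so this adds no support. Steps were tested on simulated data.

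The members, families, pathway and marker lists were chosen with earlier results of these data known, so no p is given for a list. All members are named, lung values are given for those at an unadjusted p below 0.05 and for the most abundant of each family per kilobase, and the full statistics for called genes and those next to the threshold. For the pathway, values are given for genes at that p and for Ifnar1, Ifnar2, Stat2, Irf9, Irf7, Isg15 and Usp18, while values of some single genes of the pathway and marker lists are not reported here. Alternatives were DESeq2 1.42.0, limma-voom (limma 3.58.1), library size without TMM, DESeq2 and upper-quartile factors, no filter, at least 1 CPM in 3 lungs, a replicate block, a prior count of 2, and omission of each lung. Shared transcript sequence was found from identical 150-base stretches of GENCODE transcripts, and shared exon bases from the annotation.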

Additional observations from a re-analysis of the deposited data

How the results depend on the processing

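Against 5 called effector genes in edgeR, DESeq2 called 8 and the edgeR fit with no filter beyond 1 count called 13. Of 39 tested pathway genes, 2 were called, against 1 by limma-voom and 4 with no filter. With single lungs left out, calls ranged from 0 to 11 for the effector genes and from 0 to 2 for the pathway genes, and the median log2 fold change of the effector genes from -0.23 to -0.15. Numbers of calls in the whole table moved as well, from 300 to between 65 and 621 without 1 lung, 530 by DESeq2, 251 by limma-voom, 1109 with no filter and 446 with the replicate block. The fit with the replicate number as a block called 6 effector genes, adding Ifit1. Deviations of same-numbered lungs from their group means, over all tested genes, correlated at -0.0139, -0.00355 and -0.0148. These values showed no pairing by number. They could miss a pairing that affects few genes, and which animals shared a litter is not known. All 5 called genes were called under each of the 8 alternatives that kept all lungs. The signs that turned belonged to genes near 0: Parp12 was at -0.0012 with DESeq2 size factors, and Ifi27 at 0.0017 with upper-quartile factors and 0.0034 with no filter. Without single lungs, log2 fold changes crossed 0 in Ifi27 (-0.021 to 0.028), Ifitm2 (-0.036 to 0.066), Parp12 (-0.056 to 0.052), Ifnar1 (-0.016 to 0.081), Usp18 (-0.12 to 0.021), Trim21 (-0.12 to 0.025), Ifnar2 (-0.084 to 0.045), Bst2 (-0.12 to 0.028), Parp14 (-0.16 to 0.0098), Slfn5 (-0.11 to 0.045), Ifit3b (-0.24 to 0.061) and Epsti1 (-0.18 to 0.035). For every other setting and gene among the 45, the direction was kept. The cause of these moves was not tested. Fits with fewer lungs have fewer samples. The fit with no filter adjusted over more genes (31428 against 17120) and called more. Both the 3 lungs per genotype and depth limit precision: the lowest count was 29 reads, and the median SE was 0.15 in the 15 genes of lowest level against 0.073 and 0.075 in the others.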

Other observations

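Dendritic cells, monocytes and NK cells can produce or answer interferon, and their markers were looked at in the same lungs. Plasmacytoid dendritic cells, known as strong producers of type I interferon, had 5 markers, of which 4 were tested, all with positive log2 fold changes (R/R over WT, median 0.18) and adjusted p values from 0.197 to 0.928 in edgeR. Siglech, which marks these cells, was at 4.15 ± 0.538 CPM in R/R against 3.43 ± 0.669 CPM in WT (SD over 3 lungs per genotype). Tcf4, another of the 4, was far more abundant, at 260 ± 11.7 CPM in R/R against 253 ± 9.61 CPM in WT. The 4 markers may therefore not all report these cells. The 5 markers of conventional dendritic cells had a median log2 fold change of -0.072, with adjusted p values from 0.412 to 0.767 in edgeR, and the 5 NK cell markers a median of 0.11, with values from 0.724 to 0.938. Of 5 monocyte genes, Nr4a1 was called higher (log2 fold change 0.76, SE 0.12, edgeR adjusted p = 0.0148), a nuclear receptor of patrolling monocytes that is also an immediate early gene in many other cells, while Ccr2, Spn, Ly6c2 and Csf1r had log2 fold changes of -0.32, -0.39, -0.13 and -0.050.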
